A study of Mus musculus with 36 samples.

Results

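The chromatin response of cortical neurons to 1 h of BDNF was measured by ATAC-seq, which counts insertions of a transposase into open chromatin, in 2 libraries. These were set against 6 libraries of silenced control neurons, so that 8 of the 36 libraries of the series carry the comparison. Of 58177 consensus peaks, 56383 had a mean count of at least 10 and were tested with edgeR's quasi-likelihood test at a Benjamini-Hochberg adjusted p below 0.1. At this threshold 6996 peaks were higher with BDNF (12.4% of those tested, called opening here) and 2773 were lower (4.92%, called closing). Neurons came from CD-1 mouse embryos at embryonic day 15, were cultured for 7 days and were silenced with 100 µM AP-5, an NMDA receptor blocker, and 1 µM TTX, a sodium channel blocker. The BDNF group was silenced for 2 h before it received 10 ng/ml BDNF for 1 h, and a KCl group, used for comparison, received 55 mM KCl for 1 h after the same 2 h. The controls stayed in the blockers for 3, 8 or 12 h in all (2 libraries each), and so matched stimulation for 1, 6 and 10 h. The cultures are primary cells of embryonic cortex and not a sorted cell type. In the RNA-seq libraries, 7 neuronal markers summed to 69200 to 77500 normalised reads in controls and 74300 to 76300 with BDNF at 1 h, while 7 microglial markers summed to at most 185 in either. A set of 6 astrocyte markers summed to 10600 to 15200 in controls and 12700 to 13600 with BDNF, and none of them was called in RNA. Interneuron markers summed to 13500 to 16300 and 18600 to 19100 (4 of 8 called higher) and excitatory neuron markers to 9440 to 10700 and 8460 to 8590 (3 of 7 called higher, 4 lower). In bulk libraries fewer cells of a type and less RNA or accessible chromatin per cell cannot be told apart.

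BDNF binds the receptor tyrosine kinase TrkB, which signals through the Ras-MAPK, PI3K and PLC pathways to the nucleus. There it induces immediate early genes, many of which encode transcription factors of the Fos, Jun and Egr families. Fos and Jun proteins pair to form AP-1, which binds a short palindrome-like site, and neuronal enhancers at which AP-1 binds are known to gain accessibility after stimulation.

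Between 2.43 and 4.24 M (mega) reads fell in peaks in the controls, 3.82 M in BDNF library A and 4.91 M in library B. Along the first principal component, which held 52.3% of the variance over 18 libraries, the BDNF libraries stood at -77.67 and -78.5 and the controls between 52.78 and 71.14. Levels below are counts scaled by LOESS offsets (scaled counts), and fold changes are log2 values with standard errors (SE). The deposited table lists no count under 1, so folds from controls near 1 are limited by that floor.

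The opening was larger and more widely shared than the closing. The median log2 fold change was 1.56 among opening peaks and -1.14 among closing peaks, with -0.0519 over all tested peaks. At least a 4-fold change was seen at 2228 opening and 129 closing peaks, and at least 8-fold at 464 and 10. Opening peaks were weak in silenced neurons, with a median control level of 11.2 scaled counts against 28.4 at closing peaks and 30.4 at peaks that were not called. The control level enters the fold change, and the mean count that admitted a peak was taken over all 18 libraries, stimulated ones included. This order is therefore a description only. In 6499 of the 6996 opening peaks both BDNF libraries lay above all 6 controls, and in 2124 of the 2773 closing peaks both lay below. Among all tested peaks this held for 14.8% and 8.85%. The calls were made from these same libraries, so such separation is largely built into them and is a description only. The closing calls depended on single libraries more than the opening calls. Without BDNF library A 5042 peaks opened and 1127 closed, without library B 4570 and 1164, and with only the controls of 1 h 5915 and 1640. Peaks called in all of these fits numbered 3643 opening (52.1%) and 169 closing (6.09%).

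Opening took place away from promoters. Promoter peaks (within 1000 bp upstream to 100 bp downstream of a transcription start site, TSS) made up 27.1% of tested peaks, but 10.3% of opening and 16% of closing peaks. Read the other way, 4.72% of promoter peaks opened (exact 95% interval 4.39 to 5.07), against 15.9% of intronic (15.4 to 16.5) and 15.0% of intergenic peaks (14.5 to 15.5). Opening promoter peaks also changed less, with a median log2 fold change of 0.784 against 1.65 in introns and 1.63 between genes. The median distance to the nearest protein-coding TSS was 54.0 kb for opening, 64.9 kb for closing and 23.4 kb for uncalled peaks. Intervals on shares cover counting error only.

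The opening peaks with the largest fold changes among peaks with a mean of at least 30 scaled counts lay near genes of varied function. The largest was in an intron of Spred2, an inhibitor of Ras-MAPK signalling (chr11:19979271-19979668, 24.7 kb from the TSS). Its controls had 1.16 (lowest), 5.22 (median) and 14.6 scaled counts (highest) and its BDNF libraries 164 and 170, a log2 fold change of 4.84 ± 0.30 (SE, edgeR adjusted p = 3.13e-30). A peak in an intron of Samd4, an RNA-binding translational repressor, had 2.32, 5.74 and 12.0 scaled counts in controls and 159 and 152 with BDNF (log2 fold change 4.48). In both loci no control came near the BDNF libraries. Bach1, a repressor with the same type of DNA-binding domain as Fos and Jun, held an intronic peak that rose from a control median of 7.18 to 140 and 145 (4.38). S100a3, a calcium-binding protein, held one that rose from 7.60 to 170 and 164 (4.33). Further members were an intron of Apba2, an adaptor of the amyloid precursor protein (4.31), a peak 174 kb from Eya1, a transcriptional co-activator (4.22), and an intron of Iglon5, a neuronal cell adhesion protein (4.13). Peaks nearest to Alkbh3 (4.14), Rab18 (4.06), Trip12 (3.93, inside Fbxo36), Bnc2 (3.86) and Mysm1 (3.85) completed the 12. At all 12 both BDNF libraries lay above all 6 controls, as the choice of these peaks required. The mean of at least 30 was taken over all 18 libraries, stimulated ones included. Peaks weak in controls, such as that of Spred2, were therefore admitted through their stimulated libraries, and the ranking is a description only. None of the 12 lost its call under any alternative setting.

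**Figure D1:**
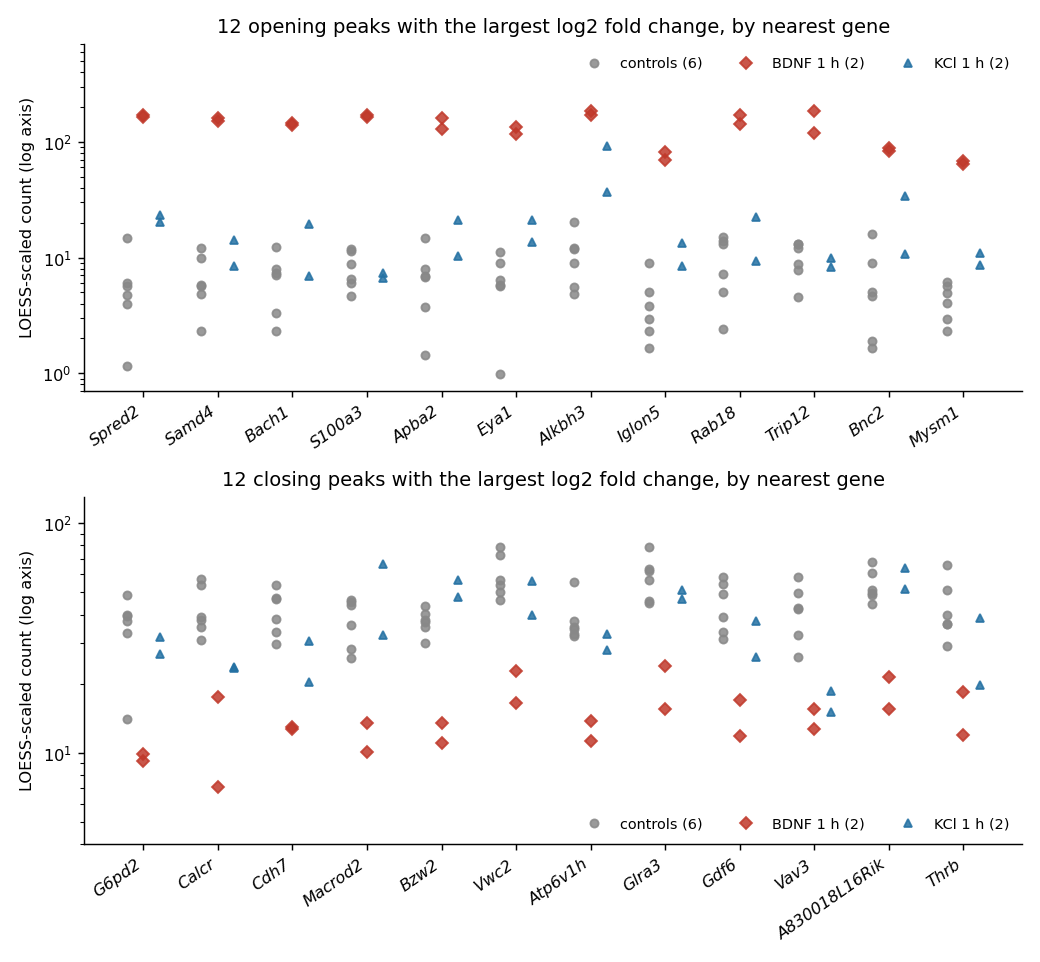
Scaled counts (log axis) at 12 opening (top) and 12 closing peaks (bottom), named by the nearest gene. Shown are the 6 controls, the 2 BDNF 1 h and the 2 KCl 1 h libraries. The peaks had the largest log2 fold changes, 1 per gene, among those that passed 2 filters. These were a mean of at least 30 scaled counts and both BDNF libraries outside the range of the controls. At the Spred2 peak the BDNF libraries stand at 164 and 170 and the highest control at 14.6, and at the Vwc2 peak at 16.5 and 22.7 with the lowest control at 46.3.

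The central 120 bases of some of these peaks show what most of them share, and follow here from the plus strand of GRCm38 (mm10). Capitals mark the AP-1 consensus TGAGTCA or its reverse complement TGACTCA. The peaks of Spred2, Samd4 and Apba2 hold a single match in their central 200 bp, Mysm1 holds 2, and Eya1 holds 3, of which 2 are in the stretch shown.
Spred2, chr11:19979409-19979528: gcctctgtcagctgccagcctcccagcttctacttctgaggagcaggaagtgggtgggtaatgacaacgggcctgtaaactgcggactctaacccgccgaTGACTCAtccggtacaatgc
Samd4, chr14:46898798-46898917: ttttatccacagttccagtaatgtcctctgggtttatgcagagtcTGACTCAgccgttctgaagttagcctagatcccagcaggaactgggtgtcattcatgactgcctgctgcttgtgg
Apba2, chr7:64662661-64662780: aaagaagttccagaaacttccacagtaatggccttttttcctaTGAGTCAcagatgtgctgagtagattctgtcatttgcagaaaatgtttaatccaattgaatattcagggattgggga
Eya1, chr1:14484607-14484726: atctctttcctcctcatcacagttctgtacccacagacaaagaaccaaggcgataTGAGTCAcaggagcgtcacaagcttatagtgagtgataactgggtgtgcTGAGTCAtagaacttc
Mysm1, chr4:95001510-95001629: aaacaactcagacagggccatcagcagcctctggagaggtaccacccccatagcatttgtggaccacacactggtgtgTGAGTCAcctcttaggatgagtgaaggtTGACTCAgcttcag

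The AP-1 consensus was the sequence feature that most separated opening from closing peaks among the 14 motifs searched. It lay in the central 200 bp of 48.1% of opening peaks (exact 95% interval 46.9 to 49.3), 0.721% of closing peaks (0.441 to 1.11) and 3.70% of uncalled peaks, and in 9.06% of all tested peaks. Among the 3643 opening peaks called in all the fits above the share was 58.5% (56.9 to 60.1), and among the 169 closing peaks it was 0 (upper limit 2.16%). The separation held within each class. AP-1 was in 23.3% of opening and 1.58% of uncalled promoter peaks, 49.6% and 4.42% of intronic peaks, and 52.8% and 4.98% of intergenic peaks. Matches gathered at the centres of opening peaks. Of 5900 matches within 500 bp of an opening peak's centre, 23.7% were within 25 bp of it, against 1.61% of 249 around closing peaks and 6.47% of 7431 around uncalled peaks.

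The number of matches went with the size of the opening. Of 51272 peaks with no match 7.08% opened, of 4528 with 1 match 62.3% (60.9 to 63.7), of 532 with 2 matches 92.9% (90.3 to 94.9) and of 51 with 3 or more 96.1% (86.5 to 99.5). The median log2 fold change over these classes was -0.0903, 1.26, 2.33 and 2.88. Closing was rare where AP-1 was present: 19 of 4528 peaks with 1 match closed (0.420%) and 1 of the 532 with 2. An AP-1 match in a promoter went with opening less often, in 42.5% of 395 peaks (37.6 to 47.6), than in an intron (69.1% of 2140) or between genes (66.8% of 2344). When AP-1 peaks outside promoters were split into 4 groups of like size by control level, 94.6% of the group with the lowest level (up to 6.08 scaled counts) opened and 40.4% of the group with the highest (18.9 and more). The control level also enters the fold change, so this last order is a description only.

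**Figure D2:**
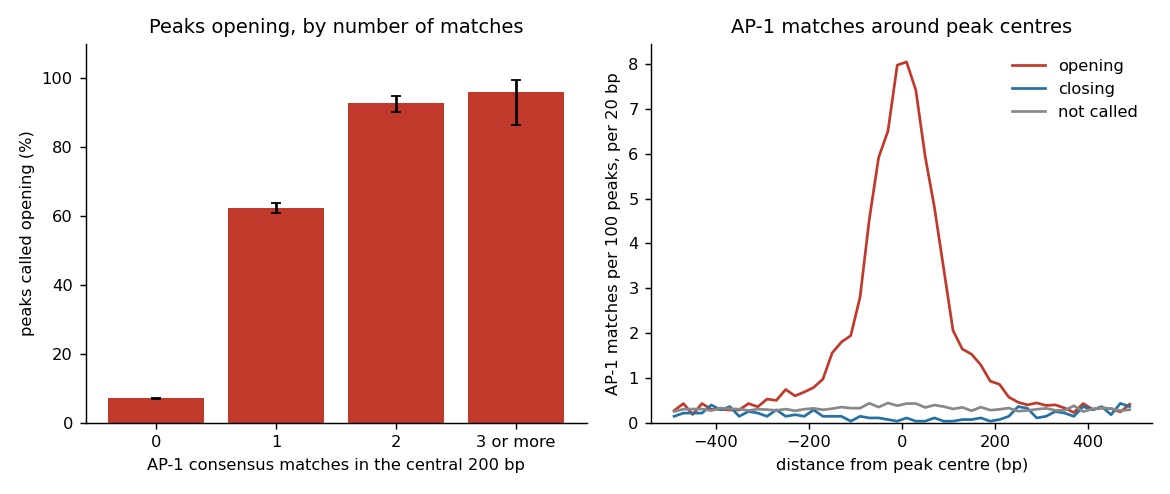
Left, the share of tested peaks called opening (%) by the number of AP-1 consensus matches in their central 200 bp, with exact 95% intervals: 7.08% with none and 92.9% with 2. Right, AP-1 matches per 100 peaks in 20 bp bins by distance from the peak centre (bp) for opening, closing and uncalled peaks, where the opening curve peaks at 8.05 beside the centre and the uncalled curve reaches at most 0.442.

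The bases on either side of the site went with opening too. The flanks were compared in the 4498 peaks with exactly 1 consensus match that had both flanking bases in the window. They were read beside TGAGTCA, and a pair was pooled with its reverse complement, which gave 10 classes. TGAGTCA is not its own reverse complement, so a class can hold unlike sites. The class of ATGAGTCAC also holds sites flanked by G and T, and that of CTGAGTCAA sites flanked by T and G. The other classes named here hold a single site. The lowest share opening was 13.0% for TTGAGTCAA (7 of 54 peaks, interval 5.37 to 24.9), with a median log2 fold change of 0.0307. It was 30.7% for the class of CTGAGTCAA (65 of 212) and 39.6% for CTGAGTCAG (124 of 313). The highest was 75.7% for the class of ATGAGTCAC (665 of 878, 72.8 to 78.5). Next were 74.4% for ATGAGTCAT (374 of 503, 70.3 to 78.1) and 72.7% for GTGAGTCAC (301 of 414). The medians of these 3 were 1.60, 1.52 and 1.55. Sites flanked by A or G on the 5′ side and C or T on the 3′ side thus stood at the top, and their intervals overlap one another and not those of the 3 lowest. Outside promoters the same flanks gave 15.6% for TTGAGTCAA and 76.0% for the class of ATGAGTCAC.

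Opening peaks without the consensus often held a site 1 base away from it. All single-base changes of the consensus were counted in the 3631 opening peaks that lacked it, a search made after 7-base words had been compared in these peaks. TGAATCA was in 22.4% of them (21.1 to 23.8), 1.38% of closing and 3.00% of uncalled peaks without the consensus. TTAGTCA was in 15.8%, 1.02% and 2.17%, and TGAGTAA in 10.6%, 1.82% and 2.14%. These 3 variants were those with the largest shares of their peaks opening, at 37.0%, 36.4% and 27.6%, and were picked for that. With the 3 variants, 70.1% of opening peaks (69.1 to 71.2) held the consensus or a variant. The share was 4.76% of closing, 10.5% of uncalled and 17.6% of all tested peaks. The pick was made in these same peaks and raises the share among opening ones. The interval does not cover it, so these shares are a description only. GTGGGTG, a letter away from the EGR site GTGGGCG, was in 11.1% of opening peaks without the consensus and 4.11% of uncalled ones. The loci below show the variants, in capitals and read from the plus strand of GRCm38, in opening peaks with no consensus in their central 200 bp. They are 3, the S100a3 intron above, a peak 8.85 kb from Kcna1, a voltage-gated potassium channel (log2 fold change 3.60), and a peak 20.8 kb from Dusp6, a MAP kinase phosphatase (2.59).
S100a3, chr3:90587909-90588028: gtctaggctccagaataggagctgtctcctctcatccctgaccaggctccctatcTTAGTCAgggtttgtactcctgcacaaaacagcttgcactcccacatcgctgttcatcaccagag
Kcna1, chr6:126653757-126653876: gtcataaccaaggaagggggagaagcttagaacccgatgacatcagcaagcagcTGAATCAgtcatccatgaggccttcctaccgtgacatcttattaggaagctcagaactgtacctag
Dusp6, chr10:99242199-99242318: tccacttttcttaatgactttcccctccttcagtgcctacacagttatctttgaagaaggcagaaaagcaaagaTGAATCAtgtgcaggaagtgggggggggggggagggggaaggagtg

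Opening peaks with neither the consensus nor a variant changed less and lay nearer to genes. The 2089 such peaks had a median log2 fold change of 1.04, against 1.92 for the 3365 with the consensus and 1.59 for the 1542 with a variant only. Of them 22.5% were promoters (20.7 to 24.4), against 4.99% and 5.38%, and their median distance to a TSS was 34.3 kb, against 64.2 and 66.6 kb. The variants were picked by shares opening in these same peaks, so this split is a description only. The other motifs differed less from all tested peaks. The EGR site was in 3.02% of opening, 1.95% of closing and 3.47% of all tested peaks, and the CRE site TGACGTCA in 0.815%, 0.252% and 0.717%. KLF/SP (GGGCGGG) was in 4.02%, 6.78% and 10.8%, and ETS (CCGGAAG) in 1.09%, 1.05% and 3.33%. The NeuroD E-box CAGATG was in 23.5%, 22.4% and 18.7%, MEF2 in 4.33%, 4.94% and 3.12%, the homeobox core TAATTA in 10.6%, 11.5% and 9.34% and the RFX half-site GTTGCCA in 4.19%, 6.35% and 5.12%. The median GC content of the central 200 bp was 44.5% in opening, 44.0% in closing and 49.0% in all tested peaks.

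Promoter openings of the lowest adjusted p were of 2 kinds. Some were at annotated coding genes. At Cgref1, a secreted growth regulator, the promoter peak (chr5:30945463-30945946) rose from 11, 15.0 and 21.8 scaled counts in controls to 114 and 127 (log2 fold change 3.01 ± 0.25, edgeR adjusted p = 6.84e-20). Serpinb8, a serine protease inhibitor, rose from a control median of 24.8 to 167 and 144 (2.57), and Mpp4, a membrane scaffold protein, from 11 to 101 and 108 (3.23). Promoter peaks of Rdh10, a retinol dehydrogenase (3.43), and Bnc2, a zinc finger protein (3.86), lay at start sites of other transcripts, 24.3 and 66.0 kb from those genes' nearest coding start. The other 5 were at start sites of genes known only by number, Gm7626 (3.89), Gm26863 (2.69), Gm48774 (2.17), Gm34150 (1.96) and B230216N24Rik (1.70). At all 10 both BDNF libraries lay above the highest control, which the choice by lowest adjusted p favours.

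Some genes had several opening peaks nearby. Within 100 kb, 4514 opening peaks had one of 3234 genes as the nearest, 269 genes had 3 or more and 40 had 5 or more. Bach2 (a repressor of the same family as Bach1), Schip1 (a cytoskeletal adaptor) and Trio (a guanine nucleotide exchange factor) had 9 each, of 22, 25 and 22 tested. Ank2 (an ankyrin), Camk1d (a calcium/calmodulin-dependent kinase) and Zfp704 had 7 each, of 31, 12 and 16 tested. The next 11 genes had 6, among them Apba2, Basp1 (a growth cone protein), Camk2d (a kinase subunit) and Magi2 (a synaptic scaffold). These 4 had 15, 13, 17 and 24 tested peaks. Schip1, Trio and Magi2 also had 1 closing peak each. Over all tested peaks 12.4% opened, and a gene with more tested peaks has more chances. AP-1 was in 5 of the 7 Ank2 peaks and 4 of the 6 at Camk2d and Magi2. It was in 3 of 9 at Bach2 and at Schip1, 2 of 7 at Camk1d and at Zfp704, 2 of 6 at Apba2 and 1 of 6 at Basp1. None of the 9 at Trio held it, and there the log2 fold change ran from 0.41 to 1.99. Over all opening peaks the share with AP-1 was 48.1%. The RNA of these genes moved little. Schip1 was called higher (log2 fold change 0.30, limma adjusted p = 0.00113) and Bach2 lower (-0.19, 0.0686), while Trio (-0.17), Ank2 (-0.05), Camk1d (-0.11), Zfp704 (0.09), Camk2d (-0.07) and Magi2 (0.02) were not called.

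The TrkB pathway and its inhibitors were described by lists. Among all protein-coding genes with a tested peak within 50 kb of a TSS, 24.9% had an opening and 11.7% a closing one, and 9.94% and 3.61% of those peaks opened and closed. Of the 41 genes of TrkB and its Ras-MAPK, PI3K and PLC pathways, 12 (29.3%) had an opening and 7 (17.1%) a closing peak, but by peaks 9.50% opened and 3.91% closed, near the shares for all genes. The largest opening among these was in an intron of Shc3, a neuronal adaptor of Trk receptors. It went from a control median of 5.25 scaled counts to 64.4 and 63.5 (log2 fold change 3.61), and Shc3 had a closing peak within 50 kb as well. Intron peaks of Gab1, a docking protein (2.24), and Sort1, a sorting receptor of neurotrophins (2.27), also opened. At the gene of the receptor itself, Ntrk2, 1 of 4 tested peaks opened. This promoter peak had 49.5, 73.6 and 96.5 scaled counts in controls and 131 and 105 with BDNF (0.70, edgeR adjusted p = 0.00444), and lost its call without BDNF library A. Ntrk2 RNA did not pass the test (log2 fold change -0.06).

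The feedback inhibitors of receptor kinase signalling had an opening peak at 12 of 26 genes (46.2%) and a closing one at 2, and 17.2% of their 93 peaks opened. Beside Spred2 and Dusp6, a peak 32.3 kb from Spry1, a Ras-MAPK antagonist, rose from a control median of 10.9 to 45.4 and 47.5 scaled counts (log2 fold change 2.08). A peak 23.3 kb from Dusp14, a phosphatase, rose from 25.4 to 71.8 and 63.0 (1.29), and Ier3 had one 44.2 kb away (1.38). In RNA, where limma called 21.3% of 16209 genes higher and 19.0% lower, 18 of the 26 genes were higher and 3 lower. Of the genes just named Dusp14 rose by 3.58, Dusp6 by 2.92, Spred2 by 1.72, Ier3 by 0.90 and Spry1 by 0.72 on the log2 scale. All 5 passed limma's test, with adjusted p-values from 1.68e-14 (Dusp6) to 0.00167 (Ier3).

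The immediate early transcription factors had an opening peak within 50 kb at 16 of 30 genes (53.3%), and the activity-regulated effectors at 18 of 27 (66.7%). By peaks rather than genes the shares were 13.3% and 21.4%, since a gene with more peaks nearby has more chances. In RNA 29 of 30 and 24 of 28 genes were higher and 0 lower. Near Egr3, a zinc finger factor, a peak 1.38 kb from the TSS rose from 101, 125 and 133 scaled counts in controls to 215 and 224 (log2 fold change 0.87). The Fosl2 promoter rose from 266, 276 and 301 to 384 and 423 (0.53), a peak 25.6 kb from Jun from a median of 20.0 to 65.3 and 81.4 (1.59), and an intronic one 31.3 kb from Klf6 from 9.55 to 45.4 and 37.7 (2.21). In each of these 4, which were called from these same libraries, the BDNF libraries lay above every control. Among effectors, a peak 2.58 kb from Nptx2, a synaptic pentraxin, rose from 5.64 to 63.3 and 41.9 (2.85) and a peak at Dclk1, a kinase with a doublecortin domain, from 85.6 to 195 and 237 (1.37).

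**Figure D3:**
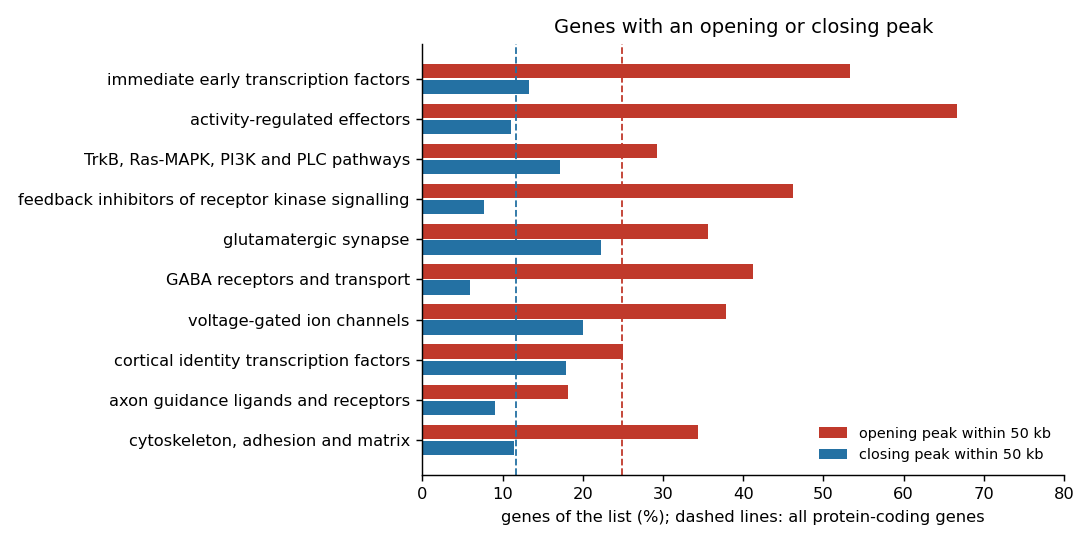
Share of the genes of each list (%) that had an opening (red) or closing (blue) peak within 50 kb of a TSS with BDNF at 1 h; dashed lines give all protein-coding genes, 24.9% and 11.7%. The activity-regulated effectors reach 66.7% and the axon guidance genes 18.2% for opening peaks.

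At single immediate early loci accessibility changed little beside the RNA. Arc, a postsynaptic protein of activity, had 25.1 to 39.4 normalised reads in controls and 6240 and 6470 with BDNF (log2 fold change 7.56). Its promoter peak had 62.1, 73.7 and 116 scaled counts in controls and 121 and 131 with BDNF (0.61, edgeR adjusted p = 0.00827; not called with controls of 1 h only or without BDNF library B). A peak 6.38 kb from the Arc TSS (chr15:74678947-74679500) moved more, from 30.3, 42.3 and 45.5 to 101 and 80.8 (1.2), and kept its call throughout. Neither held an AP-1 match in its centre. Egr1, whose RNA rose by 5.56, had 1 of 2 opening peaks at its promoter, from 415, 459 and 479 to 553 and 578 (0.32), which was not called under TMM or size-factor scaling or without BDNF library B. Its other opening peak, 25.8 kb away (0.43), lost its call in 11 alternatives. Egr2, with an RNA rise of 8.27, opened at 1 of 6 tested peaks, 43.1 kb away (1.70), and there the BDNF libraries, 10.4 and 25.4, overlapped the highest control, 10.6.

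Fos RNA rose by 5.63, and 3 of 9 peaks within 50 kb opened, at 5.69 kb (log2 fold change 1.06), 13.9 kb (0.86) and 37.3 kb (0.74) from the TSS. These are weak calls. The first lost its call in 9 alternatives, the second in 4 and the third without BDNF library A, and the Fos promoter peak at the TSS was not called (0.36, edgeR adjusted p = 0.149). Nr4a1, an orphan nuclear receptor, opened at 1 of 9 peaks, a promoter that rose from 37.2, 46.8 and 62.0 to 97.5 and 75.7 (0.81). For Npas4, a neuronal activity factor, 0 of 9 peaks were called by edgeR although its RNA rose by 2.1. At Bdnf itself, 1 of 7 peaks opened, by 0.39, lost in 10 alternatives, and at Vgf, a neuropeptide precursor with an RNA rise of 5.65, 0 of 4 opened and 1 closed at the neighbouring Ap1s1 promoter (-0.50, lost without either BDNF library).

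By peaks, ion channel and glutamatergic synapse genes stood near all genes. Of the peaks within 50 kb of ion channel genes 10.9% opened (25 of 229), of those near glutamatergic synapse genes 10.7% (23 of 215) and of those near GABA genes 14.8% (9 of 61), against 9.94% near all protein-coding genes. Over all protein-coding genes, 842 of the 4680 with an opening peak had higher RNA. Of 45 voltage-gated ion channel genes 17 (37.8%) had an opening and 9 (20.0%) a closing peak, while 8 of 44 were higher and 10 lower in RNA and 2 of the 17 with an opening peak were higher. A Cacna1c intron peak (an L-type calcium channel subunit) rose from 1.2, 2.51 and 3.88 scaled counts to 64.5 and 74.1 (log2 fold change 4.66), with RNA at 0.08 (not called). Kcna1 and Kcnc4, potassium channels, were exceptions among those named. Their peaks rose by 3.60 and 3.07 and their RNA by 3.38 and 1.12, both past limma's threshold. Kcnc4 had a closing peak within 50 kb as well. For the glutamatergic synapse 16 of 45 genes (35.6%) had an opening and 10 (22.2%) a closing peak, and 6 were higher and 9 lower in RNA, with 1 of the 16 higher. Peaks opened near the metabotropic receptor gene Grm8 (2.40) and the scaffold genes Dlg2 (1.71) and Shank1 (1.70). Their RNA changes were 0.27, -0.07 and 0.23, none called, and Dlg2 had a closing peak within 50 kb as well. For GABA receptors and transport 7 of 17 (41.2%) had an opening peak, among them Gabra2, which encodes a GABA-A receptor subunit (2.23).

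The remaining lists covered cortical identity, axon guidance and the cytoskeleton, and 5.82%, 4.27% and 10.5% of their peaks opened. The cortical identity factors had an opening peak at 7 of 28 genes (25%), and 17 of 28 were lower in RNA, beside the change in the excitatory neuron markers given above, whose part in this was not tested. Rorb, a nuclear receptor of upper cortical layers, had an opening intron peak (control median 7.20, BDNF 62.3 and 43.0, log2 fold change 2.92). It also had a closing promoter peak (-0.50), and its RNA was lower (-0.32, limma adjusted p = 0.0269). Axon guidance genes had an opening peak at 8 of 44 (18.2%), for instance Slit2 (2.37) and Slit1 (1.67). Slit2 also had a closing promoter peak (-0.61). Of the 35 cytoskeleton, adhesion and matrix genes 12 (34.3%) had an opening peak. They included Vcl, which encodes vinculin (2.06, with RNA 2.02 higher), Itgav, an integrin (2.34), and Tpm1, a tropomyosin (2.90). Vcl had a closing peak within 50 kb as well.

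The closing peaks with the largest changes lay in introns or between genes in most cases, near genes of varied function. A Vwc2 intron peak (Vwc2 is a secreted BMP antagonist) had 46.3, 55.3 and 78.8 scaled counts in controls and 16.5 and 22.7 with BDNF (log2 fold change -1.58 ± 0.29, edgeR adjusted p = 5.39e-06). Macrod2, an ADP-ribosyl hydrolase, held an intron peak with 26.0, 40.0 and 46.4 in controls and 10.1 and 13.5 with BDNF (-1.64). Glra3, a glycine receptor subunit, went from a control median of 59.3 to 23.9 and 15.6 (-1.58). Peaks nearest to G6pd2 (-1.89), Calcr, the calcitonin receptor (-1.81), Cdh7, a cadherin (-1.68), Bzw2 (-1.59), Atp6v1h (-1.58), Gdf6 (-1.57), Vav3, a guanine nucleotide exchange factor (-1.56), A830018L16Rik (-1.52) and Thrb, a thyroid hormone receptor (-1.50), made up the 12. None held an AP-1 match, and 4 lay over 200 kb from the nearest coding TSS. The Thrb call was lost without BDNF library B, and the other 11 kept theirs in every alternative. Most of the genes tested in RNA were not called. Vwc2 (0.01), Macrod2 (-0.01), Thrb (-0.02), Atp6v1h (0.13), Bzw2 (-0.07) and Cdh7 (-0.32) did not pass, while Vav3 was called lower (-0.27, limma adjusted p = 0.0564). The central 120 bases of 2 of these peaks are given for comparison with the opening sites. They come from the plus strand of GRCm38 and hold no AP-1 consensus or variant, so no letter is in capitals.
Vwc2, chr11:11242979-11243098: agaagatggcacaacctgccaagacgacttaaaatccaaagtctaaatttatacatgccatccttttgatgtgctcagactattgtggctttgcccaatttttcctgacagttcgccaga
Macrod2, chr2:140533080-140533199: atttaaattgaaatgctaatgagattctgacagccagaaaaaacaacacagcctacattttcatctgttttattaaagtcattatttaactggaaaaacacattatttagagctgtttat

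Few genes had several closing peaks. Within 100 kb, 1649 closing peaks were nearest to 1473 genes, 29 genes had 3 or more and none had 5, from fewer peaks than the 4514 opening ones. Arhgap18, a GTPase-activating protein, and Herc3, a ubiquitin ligase, had 4 each, of 11 and 8 tested, and Herc3 also had 2 opening peaks. Chl1, an adhesion molecule, Asph and Arhgef26 were among the 27 genes with 3. Closing promoter peaks changed by little at high levels. The Arl5b promoter (a small GTPase) went from 374, 395 and 441 scaled counts to 279 and 300 (log2 fold change -0.46) and Usp28, a deubiquitinase, from 204, 244 and 271 to 137 and 179 (-0.61). Lysmd3 (-0.49), Zfp229 (-0.70) and Sipa1l2 (-0.73) were alike in level, while Rgs13, a regulator of G-protein signalling, fell further from a lower level (-1.29). Robo1, an axon guidance receptor, had a closing promoter peak that fell from 38.0, 42.4 and 59.1 to 22.1 and 16.3 (-1.21), lost without BDNF library B.

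Promoter accessibility and RNA were compared gene by gene. Of 441 genes with an opening promoter peak that were tested in RNA, 151 (34.2%) were higher and 69 (15.6%) lower. Of 364 with a closing one, 108 (29.7%) were higher and 90 (24.7%) lower. Among 11011 genes with promoter peaks of which none was called, 21.7% were higher and 22.4% lower. With peaks called against controls of 1 h only, 59 genes had a closing promoter and higher RNA and 40 a closing promoter and lower RNA. The largest RNA rises beside an opening promoter were Egr4 (8.04), Arc, Egr1, Homer1, a postsynaptic scaffold (3.62), Nr4a1 (3.57), Nab2, a co-repressor of Egr proteins (3.54), C1ql2, a synaptic organiser (3.42), and Serpinb2, a plasminogen activator inhibitor (3.31). Serpinb2 alone among these 8 kept its promoter call in every alternative. Its peak went from 23.4, 32.2 and 46.9 scaled counts to 100 and 97.9 (1.56) and its RNA from 7.83 to 12.4 normalised reads in controls to 109 and 113. The Nab2 peak is also the promoter peak of Nemp1, whose RNA was not called (0.012).

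Rising RNA beside a closing promoter was seen at several stimulus-responsive genes. Sertad1, a transcriptional co-regulator, rose by 4.75 in RNA, from 18.6 to 37.2 normalised reads in controls to 766 and 714. Its promoter peak had 313, 333 and 366 scaled counts in controls and 300 and 259 with BDNF (log2 fold change -0.27), a call lost in 4 alternatives. Arl5b (RNA 1.78) and Acsl4, an acyl-CoA synthetase (RNA 1.61, promoter -0.57), kept their promoter calls in every alternative. The Arl5b peak is also the promoter peak of Nsun6, whose RNA was not called (0.128). At the Acsl4 promoter the controls had 206, 226 and 239 scaled counts and BDNF 160 and 141, with no overlap. Slc5a3 (1.49), Nr4a2 (1.44), Dennd3 (1.37), Nfil3 (1.07) and Otud1 (1.03) were the others, and each of their promoter calls was lost in at least 1 alternative. The opposite pattern, an opening promoter with lower RNA, included Runx1t1, a co-repressor (RNA -1.08, promoter 0.99, lost without BDNF library A), and Ribc1 (RNA -0.90, promoter 0.61), whose peak kept its call in every alternative and also covers the start of Smc1a, a cohesin subunit gene.

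**Figure D4:**
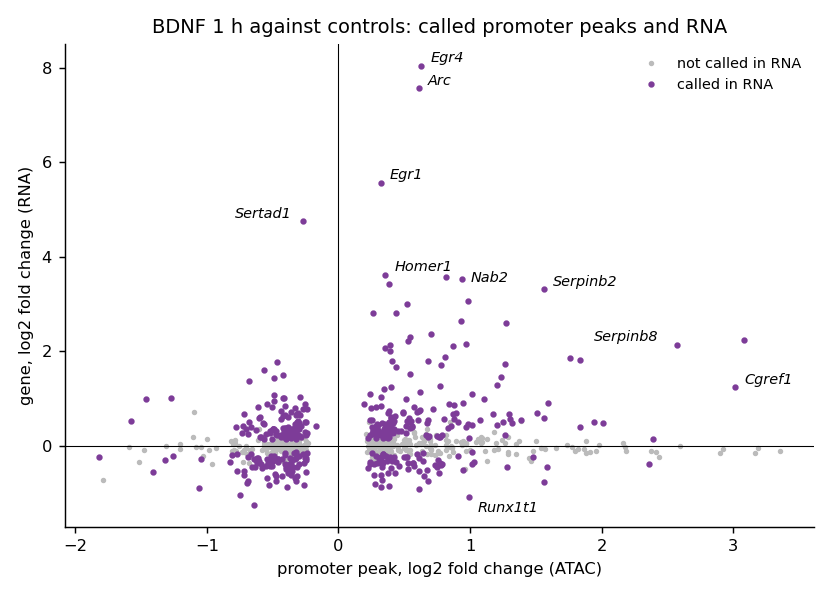
Log2 fold change of a called promoter peak (x) and of its gene's RNA (y) with BDNF at 1 h against controls, for 801 genes (the peak of lowest adjusted p for each), with the 415 genes called in RNA in purple. Genes with the largest RNA rises, Egr4 at 8.04 and Arc at 7.56, have promoter changes of 0.63 and 0.61, and genes with opening promoters lie on both sides of 0 in RNA.

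Distal peaks were assigned to the nearest protein-coding TSS within 100 kb. With no opening distal peak 20.2% of 4817 genes were higher in RNA and 20.9% lower. With 1 the shares were 23.5% and 19.4% (1543 genes), with 2 they were 27.2% and 16.2% (394), with 3 or 4 they were 25.3% and 17.6% (170), and with 5 or more 21.4% and 10.7% (28). Genes with 1 or more closing distal peaks were higher in 16.8% and lower in 24.3% of 804 cases. With 2 or more closing distal peaks they were higher in 10.2% and lower in 33.0% of 88 cases. The median number of tested distal peaks rose from 1 to 14 over the opening classes, and was 4 and 6 in the closing ones. Of the 12 opening peaks ranked first above, those of Spred2 and Bach1 lay beside genes with higher RNA (Bach1 1.15, limma adjusted p = 4.26e-08). That of Alkbh3 lay beside a gene with lower RNA (-0.42). Eya1, whose RNA was also lower (-0.56), is over 100 kb from its peak and so outside this assignment. Samd4 (0.20), Apba2 (-0.16), Iglon5 (-0.05) and Magi2, with its 6 opening peaks, were not called.

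KCl at 1 h gave fewer calls in the same test. Its 2 libraries stood further apart on the first principal component (8.44 and 37.15) than the BDNF libraries (-77.67 and -78.5). The part of this spread in the number of calls was not tested. Against the same 6 controls 5.15% of tested peaks were higher and 3.15% lower with KCl. In the direct test 5264 peaks were higher with BDNF than with KCl (9.34%) and 3104 were lower (5.51%). These counts rested in part on single libraries. The fit to all libraries made 8368 calls, and separate fits made 4285 without BDNF library A, 4217 without B and 2782 without KCl library B. AP-1 was in 40.0% of peaks higher with BDNF (38.7 to 41.3), 1.29% of those lower (0.922 to 1.75) and 6.18% of those not called. At the S100a3 intron KCl gave 6.71 and 7.33 scaled counts, within the controls' range, and BDNF stood higher by 4.54 on the log2 scale (edgeR adjusted p = 1.72e-18). At the peak nearest to Trip12 the KCl libraries, at 8.36 and 9.81, were also within the controls' range (difference 4.02). At the Alkbh3 peak KCl gave 91.4 and 37.0, above all controls, and the difference was 1.52 (9.44e-06). The Nr4a1 promoter stood the other way, at 1.40 with KCl against 0.81 with BDNF, and the direct difference of -0.59 passed the threshold narrowly (edgeR adjusted p = 0.0870). Of the closing peaks, Macrod2 and Bzw2 differed from KCl by -2.07 and -2.08 (4.8e-05 and 4.37e-05), and Vav3 was at 18.6 and 15.1 with KCl, with a direct difference of -0.24 that did not pass (0.793).

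The peaks called at 1 h were followed at later times. These contrasts share the 6 controls and the peaks were chosen by their values at 1 h, so the medians are set side by side without a test. For peaks opening with BDNF at 1 h the median log2 fold change went from 1.56 after 1 h of BDNF to 1.23 after 6 h and 1.12 after 10 h, and under KCl it was 0.428, then 0.717, then 0.757. For closing peaks BDNF gave -1.14, -0.408 and -0.331, whereas KCl gave -0.189, -0.152 and -0.178. Peaks with 2 AP-1 matches, whether called or not, had medians of 2.33, 2.04 and 1.89 under BDNF, whereas KCl gave 0.741, 1.26 and 1.27. The Spred2 peak fell back from 164 and 170 scaled counts at 1 h to 44.9 and 28.5 at 6 h and 41.7 and 35.6 at 10 h of BDNF. Iglon5, in contrast, was at 4.13, then 4.07, then 4.1 on the log2 scale, and Eya1 at 4.22, 4.09 and 3.62. The Egr3 peak was at 0.87, 0.25 and 0.15.

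**Figure D5:**
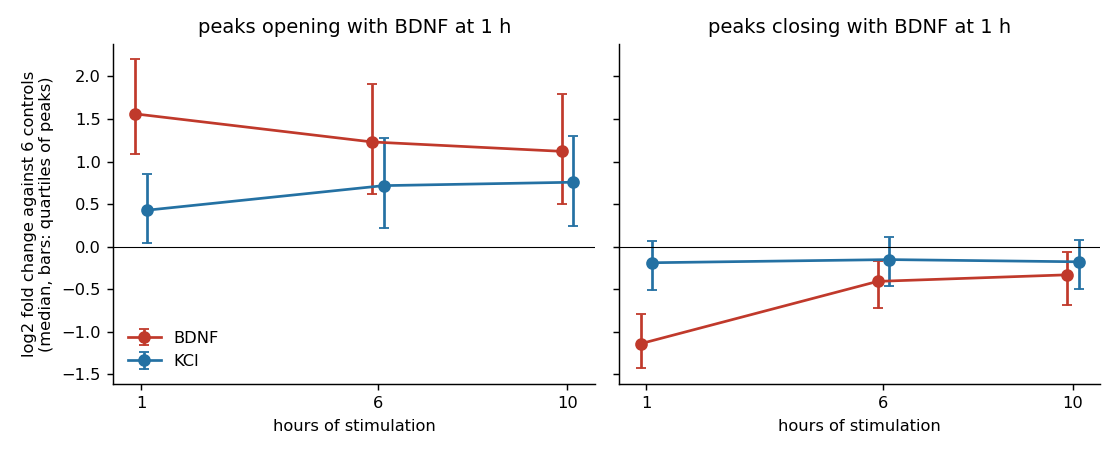
Median log2 fold change against the 6 controls (points; bars are the quartiles over peaks) at 1, 6 and 10 h of BDNF (red) and KCl (blue), for the 6996 peaks opening (left) and the 2773 closing (right) with BDNF at 1 h. The opening median is 1.56 at 1 h and 1.12 at 10 h of BDNF, and the closing median goes from -1.14 to -0.331.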

How the data were processed

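ATAC-seq and RNA-seq libraries of CD-1 cortical neurons were grouped by the sample labels. The deposited ATAC values are counts of reads in consensus peaks. For these the authors used Trimmomatic, Bowtie2 (mm10), MACS2 and DiffBind. The deposited RNA values are a signal, gene counts that the authors divided by DESeq2 size factors after TopHat2 mapping, and they gave whole reads within 0.01 for 100% of values. The authors' own comparison tables hold fold changes and p-values and were not used.

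Peaks with a mean count of at least 10 were tested with edgeR 4.0.16 in R 4.3.3 (quasi-likelihood, LOESS offsets of span 0.3, 7 levels over 18 libraries, with the 6 controls as 1 level). The SE of a log2 fold change is its absolute value over the root of F. RNA (8.51 to 36.7 M reads a library) was tested with limma 3.58.1 on log2(value + 1), which understates changes of low genes. A two-sided adjusted p below 0.1 was a call. Alternatives included TMM, size factors and DESeq2 1.42.0. The fits were tested on simulated data. Annotation was GENCODE M21 on GRCm38, and motifs were searched on both strands of each peak's central 200 bp.

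The study calls its 2 libraries a group biological replicates, while the labels do not say whether cultures were separate, so p-values measure the spread between these libraries. The chi-square per degree of freedom between ATAC replicates was 2.02 to 2.58, so none was deposited in duplicate. The letters A and B pair nothing. The peaks, lists, motifs and rules were chosen with earlier results of these data known. The rules named the 12 opening and 12 closing peaks of largest change (mean at least 30 scaled counts, both BDNF libraries outside the controls, 1 per gene), the 10 promoter peaks of lowest adjusted p in each direction, the 10 and 6 genes with most opening and closing peaks, up to 5 genes a list, the 8 largest RNA rises and 5 largest falls beside called promoters, and the peaks near 9 chosen genes. Some of these are left out for room.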

Additional observations from a re-analysis of the deposited data

Results flagged for a closer look

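In the 6 controls of 125 named peaks and 122 named genes, a single library stood apart from the other 5 at 8 peaks and 3 genes, by a gap to the next library that passed Dixon's 95% limit for 6 values. Chance gives about 1 in 20. Gaps are given as shares of the controls' range. Control 10 h A was the highest at the Spred2 peak (0.637, with 14.6 scaled counts against 6.03 for the next), the Atp6v1h peak (0.776), the Gm26863 promoter (0.804, with 57.4 against 28.4) and the Dennd3 promoter (0.645). Control 1 h A was the highest at the Robo1 (0.698), Gm34150 (0.663) and Pou3f3 peaks (0.626), and control 10 h B at the B230216N24Rik promoter (0.748). In RNA, Bdnf was lowest in control 10 h A (0.774, with 38.5 against 59.1 normalised reads), Dusp6 highest in control 6 h B (0.740) and Magi2 highest in control 10 h B (0.649). The cause was not tested.

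At 5 named peaks both BDNF libraries of 10 h lay on the other side of the control median from both libraries of 1 h. The difference between the times was not tested. The closing peaks near Calcr (log2 fold change 0.29 at 10 h), Nr4a2 (0.18) and Gm5141 (0.37) were slightly above the controls at 10 h, and the opening peaks near Grik4 (-0.35) and Slc25a42 (-0.16) below.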

How the results depend on the processing

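No paired analysis was possible because the ATAC columns carry no replicate number and the RNA columns carry letters that the sample labels do not give. At an adjusted p below 0.01 edgeR called 5469 peaks (510 closing) against controls and 2910 between BDNF and KCl (2339 higher, 571 lower), and limma called 3611 genes (2033 higher, 1578 lower). Genes called in RNA with a called promoter peak were then 83, of which 51 and 15 had an opening promoter with higher and lower RNA and 12 and 5 a closing one. With controls of 1 h only, closing peaks were 1640 and these genes 253 (59 and 40 with a closing promoter). Leaving out 1 library at a time gave 5734 to 9657 peaks (4570 to 7048 opening, 1127 to 2647 closing), 2782 to 6136 between BDNF and KCl (1918 to 4174 higher, 864 to 1962 lower) and 3926 to 6599 genes (2169 to 3542 higher, 1757 to 3057 lower, the fewest without RNA BDNF library A). edgeR on the recovered whole reads called 3071 genes higher and 3359 lower. The AP-1 shares of opening and closing peaks were 58.5% and 1.98% over whole peaks, 31.6% and 0.288% in the central 100 bp and 55.1% and 0.196% at 0.01. The requirement of a call in all fits, chosen after seeing the data, left 3643 opening and 169 closing peaks. Of 125 named called peaks, 83 kept their call and direction in all 16 alternatives, 42 lost the call in at least 1 and 0 turned. The cause of lost calls was not tested. The smallest change that could be detected at these depths was not measured.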
